A study of Homo sapiens with 52 samples.

Results

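The 10 genes described here are components of bone morphogenetic protein (BMP) and activin signalling and the ID genes that respond to it. They were chosen by name from 78894 genes and each name was found once. BMP2, BMP4 and INHBA encode ligands, GREM1, BAMBI and SMAD6 encode inhibitors at 3 different steps, and ID1, ID2, ID3 and ID4 encode nuclear proteins. They were measured by bulk mRNA sequencing in 52 samples of 3 established lines of claudin-low human breast cancer, SUM159PT, MDA-MB-231 and HS578T. In each cell line NRP1, which encodes the co-receptor neuropilin-1, was knocked down. The siRNA groups were siNT (non-targeting), siNRP1#3 and siNRP1#5, transfected at 20 nM and harvested at 72 hrs. The shRNA groups were shNT, shNRP1#3 and shNRP1#5, delivered by lentivirus under puromycin selection, with RNA taken 48 hrs after the cells were seeded. Sequence 5 was the same in siNRP1#5 and shNRP1#5 and targets the transmembrane and soluble forms of NRP1. Both sequences numbered 3 target the transmembrane form only, and they differ from each other. The shRNA replicates were successive passages of transduced cells, so the p-values of shRNA groups do not measure the spread between separate transductions. Of the 18 groups, 16 had 3 samples, and SUM159PT siNRP1#5 and HS578T shNRP1#3 had 2.

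BMP2 and BMP4 are secreted ligands that bind serine/threonine kinase receptors and lead to phosphorylation of SMAD1, SMAD5 and SMAD9. INHBA encodes the subunit of activin A, whose receptors act through SMAD2 and SMAD3. Gremlin 1, the product of GREM1, binds BMPs outside the cell, BAMBI is a receptor-like membrane protein without a kinase domain, and SMAD6 blocks the pathway inside the cell. The ID proteins lack a DNA-binding region, pair with E proteins and keep these from DNA, and ID1, ID2, ID3, BAMBI and SMAD6 are known transcriptional targets of BMP signalling.

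In CPM (counts scaled to a common library total, with TMM factors), NRP1 was lower than in its own control in all 12 knockdown comparisons, without overlap between groups. Its mean ranged from 3.32 to 60.65% of control. In the order siNRP1#3, siNRP1#5, shNRP1#3 and shNRP1#5 it was 23.3, 4.98, 40.1 and 19.85% in SUM159PT. In the same order it was 60.65, 3.32, 35.9 and 48.1% in MDA-MB-231, and 43.5, 15.85, 33.9 and 23.7% in HS578T. The reagents compared below thus differed in depth of knockdown. In TPM (a share of all transcripts, which accounts for their length), NRP1 in MDA-MB-231 siNRP1#3 overlapped its control, with means of 28.5 against 28.8 in siNT. Expected counts summed to between 25310443 and 72003442 per library. Vimentin was abundant in every line and CDH1 was at most 9.11 CPM. However, CLDN4, a claudin whose low expression marks the claudin-low type, had a median of 146 CPM in MDA-MB-231 against 1.80 in SUM159PT and 3.18 in HS578T. Some libraries had RNA of genes silent in the controls of their own line and active in another line. It is read here and below as RNA of that other line, and the shares are estimates from these markers. Whether a treatment raised the markers in the line itself was not tested. In the 3 HS578T siNRP1#5 libraries the level of 3 MDA-MB-231 marker genes corresponded to 22.55, 22.65 and 12.0% MDA-MB-231 RNA, and that of 59 markers set by a looser rule to between 13.3 and 24.8%. In HS578T siNRP1#3 the same 3 markers gave 1.93 to 6.69% and in siNT 0.644 to 1.18%. HS578T siNRP1#5 replicate 2 also held 6.74% SUM159PT RNA by 11 markers and 8.72% by 70 markers of the looser rule. For replicate 1 these values were 0.020 and 2.09%. One MDA-MB-231 library, shNRP1#3 replicate 3, held 2.33% SUM159PT and 1.91% HS578T RNA. Calls of members in HS578T siNRP1#5 against siNT, and some other results, are also given with this RNA subtracted. The level subtracted is that of the other line in its own controls unless stated. Counts of calls are without subtraction unless stated.

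The region in front of a gene's start is where transcription factors of the pathway can bind, and 4 such windows of 250 bases are shown because the main BMP4 start of MDA-MB-231 was not that of the other lines and because BAMBI and ID3 moved in several groups. The 4 sequences are written 5′ to 3′ on the gene's strand and end at the base before the start. Capitals mark GGCGCC and CAGAC (or GTCTG, the same motif on the other strand), which are motifs described for SMAD proteins and do not overlap in these windows. The BMP4 windows come from the reference genome GRCh38, and the other windows from RefSeq on GRCh38.p14, where 9 of the 10 genes had a window. Of 35116 RefSeq windows of this length, 16.4% held GGCGCC and 38% held CAGAC on either strand.
BMP4 upstream start (ENST00000245451.9), chr14:53956826-53957075, minus strand: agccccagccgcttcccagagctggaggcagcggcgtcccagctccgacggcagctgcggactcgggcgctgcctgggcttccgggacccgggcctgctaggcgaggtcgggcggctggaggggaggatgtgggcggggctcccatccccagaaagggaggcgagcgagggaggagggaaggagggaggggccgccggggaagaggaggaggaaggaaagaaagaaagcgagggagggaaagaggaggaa
BMP4 downstream start (ENST00000558984.1), chr14:53953456-53953705, minus strand: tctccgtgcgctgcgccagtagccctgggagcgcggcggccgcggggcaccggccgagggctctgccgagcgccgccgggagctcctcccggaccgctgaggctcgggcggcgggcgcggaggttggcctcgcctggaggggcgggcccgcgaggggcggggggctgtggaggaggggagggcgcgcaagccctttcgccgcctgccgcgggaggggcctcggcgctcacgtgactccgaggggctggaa
BAMBI, chr10:28677271-28677520, plus strand: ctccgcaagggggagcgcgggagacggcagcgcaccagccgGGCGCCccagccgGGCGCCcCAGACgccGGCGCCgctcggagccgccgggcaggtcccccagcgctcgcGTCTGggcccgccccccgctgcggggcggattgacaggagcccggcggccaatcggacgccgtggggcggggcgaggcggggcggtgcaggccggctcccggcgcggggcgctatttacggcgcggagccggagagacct
ID3, chr1:23559502-23559751, minus strand: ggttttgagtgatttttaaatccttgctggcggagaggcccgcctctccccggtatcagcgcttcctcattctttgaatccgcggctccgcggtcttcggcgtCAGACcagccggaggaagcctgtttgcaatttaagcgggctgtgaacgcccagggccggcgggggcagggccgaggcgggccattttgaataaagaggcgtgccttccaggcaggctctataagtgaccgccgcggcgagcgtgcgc

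The BAMBI window held 3 copies of GGCGCC and 2 of CAGAC, the ID3 window held 1 CAGAC, and neither BMP4 window shown held either motif. The BAMBI window was 81.2% G and C, and the shares over all windows were not matched for this. Of the members not shown, ID1, ID2, SMAD6 and INHBA had neither motif and ID4 had 1 CAGAC. Of the GREM1 windows, 1 held 2 GGCGCC and 2 CAGAC and 1 held 1 CAGAC. RefSeq lists 3 BMP4 windows, of which 1 held 1 GGCGCC and 1 CAGAC, 1 held 1 CAGAC and 1 held neither. The 2 BMP4 starts lie 3370 bases apart on chromosome 14, and a second transcript from the upstream start begins 14 bases further downstream.

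In the non-targeting controls the 3 cell lines had different sets of ligands and ID genes. Levels are compared here in TPM, as mean ± SD of the 6 control libraries of a line. MDA-MB-231 was the BMP4 line, at 124 ± 64.4 TPM against 5.96 ± 4.04 in SUM159PT and 5.60 ± 4.34 in HS578T, and every MDA-MB-231 control was above every control of the other lines. It had nearly no BMP2 (0.00500 ± 0.00548 TPM) and little ID2 (0.347 ± 0.182 TPM). SUM159PT and HS578T expressed BMP2 at 2.27 ± 1.62 and 0.953 ± 0.343 TPM. INHBA was at 11.1 ± 3.27 TPM in HS578T, 0.630 ± 0.172 in MDA-MB-231 and 0.0800 ± 0.0780 in SUM159PT, and the 3 ranges did not overlap. GREM1 and ID4 were nearly silent: ID4 had 0 counts in 45 of the 52 libraries and GREM1 in 40.

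**Figure D1:**
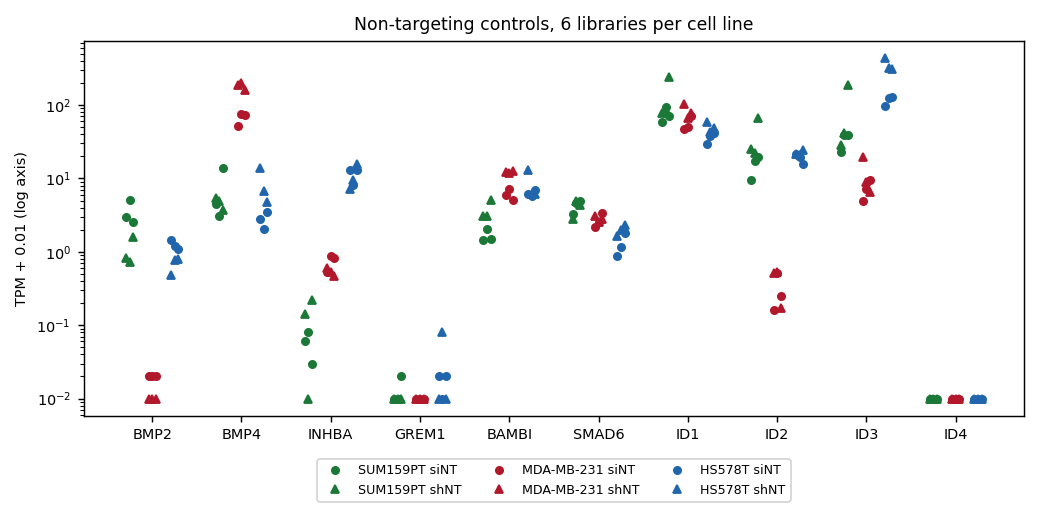
TPM (plus 0.01, log axis) of the 10 genes in the non-targeting control libraries, by cell line (colour) and by siNT (circles) or shNT (triangles); each point is 1 library. BMP4 was highest in MDA-MB-231 and INHBA and ID3 in HS578T, and BMP2 and ID2 were lowest in MDA-MB-231.

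Among the ID genes, the ID1 level was 105 ± 68.1 TPM for SUM159PT, 69.5 ± 20.9 for MDA-MB-231 and 43.1 ± 10.2 for HS578T, with ranges that overlapped between neighbours in that order. ID3 was ordered HS578T, SUM159PT, MDA-MB-231, with 238 ± 140 TPM, 60.3 ± 64.0 and 9.44 ± 5.28, although the ranges of HS578T (98.3 to 441) and SUM159PT (23.0 to 190.1) overlapped. ID2 was at 26.5 ± 20.1 TPM in SUM159PT and 20.6 ± 2.94 in HS578T. BAMBI was at 9.15 ± 3.42 TPM in MDA-MB-231, 7.36 ± 2.89 in HS578T and 2.68 ± 1.35 in SUM159PT. SMAD6 was at 4.15 ± 0.902, 2.74 ± 0.437 and 1.62 ± 0.541 TPM in the order SUM159PT, MDA-MB-231, HS578T.

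On the count scale, 8 of 9 tested members differed between SUM159PT and MDA-MB-231, where 59.4% of all genes tested were called, 6 between HS578T and MDA-MB-231 (70.2% of all genes), and 6 between HS578T and SUM159PT (63.5%). BMP2 passed the count filter only through the lines where it is high, so its calls against MDA-MB-231 are a description. The log2 fold change of ID2 in SUM159PT over MDA-MB-231 was 6.65 (SE 0.34, adjusted p = 3.05e-20). ID2 did not pass the test between HS578T and SUM159PT (log2 fold change 0.13, SE 0.25, adjusted p = 0.683), nor did BMP4 (0.16, SE 0.38, adjusted p = 0.735). BAMBI was 0.54 higher on the log2 scale in HS578T than in MDA-MB-231 by counts (SE 0.22, adjusted p = 0.0238), but its sign turned with TPM (-0.29 on log2(TPM + 0.1)), and the call was lost without replicate 1 or replicate 3.

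Each knockdown was then compared with its own non-targeting control, which asks whether these genes changed under the reagents against NRP1. Over the 12 comparisons, 96 tests of members could be made and 16 passed an adjusted p of 0.05, 11 higher and 5 lower in the knockdown. That is 16.7% of tests, against 11.3% of the tests over all genes. Without GREM1, which passed the count filter only through the group where it was high, 15 of 92 tests passed (16.3%). BAMBI with siNRP1#5 was the only member and reagent called in all 3 lines. BMP4 was called 5 times (3 higher, 2 lower), BAMBI 4 times (3 higher, 1 lower), ID3 3 times (2 higher, 1 lower), and INHBA, GREM1, SMAD6 and ID2 once each. BMP2 and ID1 were not called in any of the 12, although BMP2 was called in HS578T siNRP1#5 once RNA of other lines was subtracted (log2 fold change 1.24, adjusted p = 0.0277).

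**Figure D2:**
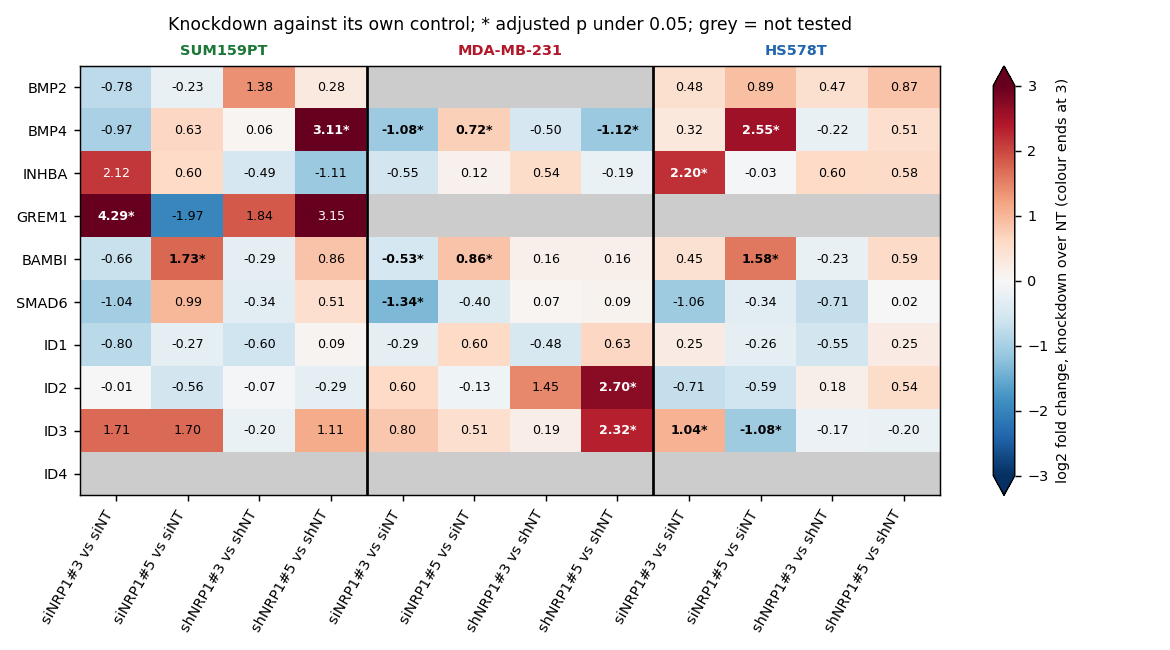
Log2 fold change of each gene (rows) in each knockdown over its own control (columns), for SUM159PT, MDA-MB-231 and HS578T; an asterisk marks an adjusted p under 0.05 and grey a gene too low to test. Calls are spread over both signs, and the 3 shNRP1#3 columns have none; GREM1 had at most 12 counts in a library.

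By comparison, SUM159PT siNRP1#3 had 1 member called of 9 tested (8.66% of all genes tested were called), siNRP1#5 had 1 (17.9%), shNRP1#5 had 1 (5.94%) and shNRP1#3 had 0 (1.4%). MDA-MB-231 siNRP1#3 had 3 of 7 tested (25.7% of all genes), siNRP1#5 had 2 (29.4%), shNRP1#5 had 3 (20.7%) and shNRP1#3 had 0 (3.65%). HS578T siNRP1#3 had 2 of 8 tested (4.65% of all genes), siNRP1#5 had 3 (18.7%), and shNRP1#3 and shNRP1#5 had 0 each (0.0356 and 0.946%). In the comparisons without a call, edgeR gave 1 member at an unadjusted p under 0.05 in SUM159PT shNRP1#3 (BMP2), 3 in MDA-MB-231 shNRP1#3 (BMP4, ID1 and ID2), 0 in HS578T shNRP1#3 and 1 in HS578T shNRP1#5 (BMP2). In the same order, 2520 of 20067, 3147 of 18800, 1349 of 19661 and 3777 of 19661 genes tested were under this value. DESeq2 called 1 in SUM159PT shNRP1#3 (BMP2), 1 in MDA-MB-231 shNRP1#3 (ID2) and 0 in both HS578T shRNAs. No share over all genes is given for DESeq2, here or below, so its counts of members have no background. In bulk samples, a change in RNA per cell and a change in the mix of cells cannot be told apart.

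BMP4 in MDA-MB-231 moved in opposite directions under the 2 siRNAs. Its levels were 53.5, 85.3 and 82.1 CPM in siNT, 27.9, 32.9 and 41.9 in siNRP1#3, and 105.5, 151 and 101 in siNRP1#5. The 3 groups did not overlap. BMP4 fell by 1.08 on the log2 scale with siNRP1#3 (SE 0.21, adjusted p = 0.000913) and rose by 0.72 with siNRP1#5 (SE 0.21, adjusted p = 0.0124). The rise lost its call without siNRP1#5 replicate 2 (0.49, adjusted p = 0.0909) or siNT replicate 1 (0.55, adjusted p = 0.0703), on both TPM scales, and with only the 2 groups in the fit (adjusted p = 0.0602).

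With shRNA, BMP4 in MDA-MB-231 was at 183, 195 and 153 CPM in shNT, 119.7, 150.3 and 104 in shNRP1#3, and 97.6, 68.5 and 77.9 in shNRP1#5. Both knockdown groups lay below every shNT library. The fall passed the test in shNRP1#5 (log2 fold change -1.12, SE 0.21, adjusted p = 0.00112), and in shNRP1#3 the value was -0.50 (SE 0.20, adjusted p = 0.206). Sequence 5 thus had opposite BMP4 changes as siRNA and as shRNA in this line, and that difference was itself past the threshold (log2 difference -1.84, SE 0.29, adjusted p = 0.000195). The depth of knockdown was unlike, with NRP1 at 3.32% of control in siNRP1#5 and 48.1% in shNRP1#5. Whether this bears on the difference was not tested. The shNT controls were above the siNT controls by 1.24 on the log2 scale (SE 0.21, adjusted p = 0.00042).

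In SUM159PT, BMP4 was at 6.81, 5.90 and 4.22 CPM in shNT and at 51.4, 55.0 and 36.7 in shNRP1#5, so that all shNRP1#5 libraries were above all shNT libraries. The rise was 3.11 on the log2 scale (SE 0.71, adjusted p = 0.017), an 8.63-fold change. shNRP1#3 (5.43, 7.49 and 4.60 CPM) stayed in the range of shNT or just above it, with a log2 fold change of 0.06 (SE 0.67). The estimate for shNRP1#5 lay between 2.93 and 3.27 whichever library of the line was left out, and its adjusted p was above 0.05 without any 1 of the 3 shNT libraries or without shNRP1#5 replicate 2 (highest 0.0762). The siNRP1#5 replicates differed from each other, at 1.33 and 27.1 CPM, and BMP4 was not called there. SUM159PT shNRP1#5 held at most 0.935% MDA-MB-231 RNA by the 29 markers available.

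In HS578T, BMP4 was at 3.86, 3.68 and 6.53 CPM in siNT and at 33.4, 22.7 and 26.4 in siNRP1#5, without overlap, and the log2 fold change was 2.55 (SE 0.51, adjusted p = 0.00313). These are the libraries with most RNA of MDA-MB-231 markers, and MDA-MB-231 is the line with most BMP4. At the marker shares above, MDA-MB-231 RNA would bring 16.6, 16.7 and 8.81 CPM of BMP4 if it had the siNT level of that line, and 26.9, 27.0 and 14.3 CPM if it had the siNRP1#5 level. The former leaves 16.8, 6.02 and 17.6 CPM, above the 3.13 to 5.66 CPM left in siNT, with a log2 fold change of 2.06 (adjusted p = 0.0212). The latter leaves 6.54, -4.29 and 12.2 CPM, which overlap the 2.79 to 5.12 CPM left in siNT. With each line's RNA subtracted at its level under the same treatment and negative counts set to 0, the log2 fold change was 0.90 (SE 0.96, adjusted p = 0.575), so the call depended on the level assumed. In siNRP1#3, with 4.45, 4.26 and 8.86 CPM, BMP4 was not called (log2 fold change 0.32, adjusted p = 0.782). The shRNA libraries of HS578T, with at most 0.408% MDA-MB-231 RNA by the 3 markers, had BMP4 between 7.15 and 32.6 CPM, and neither shRNA changed it past the threshold.

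The transcripts of BMP4 differed between MDA-MB-231 and the other lines by their start. In MDA-MB-231, the pair of transcripts from the upstream start made up 67.8 to 79.8% of BMP4 transcripts in the 18 libraries and the transcript from the downstream start made up 8.49 to 26.1%. In SUM159PT the upstream pair made up 0 to 12.5% and the downstream transcript 48.2 to 100%. HS578T shRNA libraries resembled SUM159PT, with at most 0.740% of the upstream pair. In HS578T siNRP1#5, however, the upstream pair made up 66.4, 70.3 and 66.1% of BMP4, and in siNRP1#3 it made up 96.3, 75.3 and 80.2%, against 12.0, 5.05 and 15.6% in siNT. Isoform shares are estimates from reads that mostly fall on shared exons, and siNT and siNRP1#3 rest on 2.06 to 5.08 TPM of BMP4 in total.

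**Figure D3:**
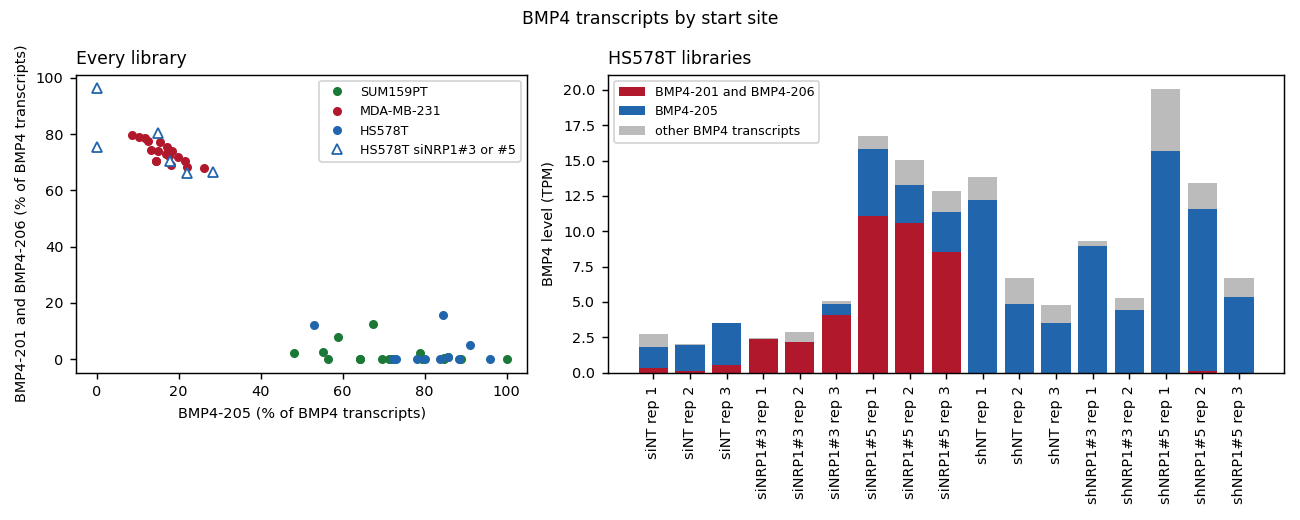
Left, share of the upstream pair against that of the downstream transcript, in percent of BMP4 transcripts, with 1 point per library; right, BMP4 in TPM in each HS578T library, divided by transcript; the legends name transcripts as the annotation does. The HS578T siNRP1#3 and siNRP1#5 libraries (triangles) have 66.1 to 96.3% of the upstream pair, and the other HS578T libraries have at most 15.6%.

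On the TPM scale, the upstream pair in HS578T siNRP1#5 had 11.1, 10.6 and 8.50 TPM, and the other BMP4 transcripts had 5.62, 4.47 and 4.37 TPM, against 2.43, 1.96 and 2.94 TPM in siNT. In MDA-MB-231 siNRP1#5 the upstream pair was a mean of 73.3% of BMP4. If the pair in HS578T siNRP1#5 came with the other transcripts in that same proportion, 1.57, 0.614 and 1.26 TPM of BMP4 would remain, below the 2.31, 1.92 and 2.75 TPM that the same arithmetic leaves in siNT, and in siNRP1#3 the remainder would be below 0 in all 3 libraries. By the share of the 3 markers, MDA-MB-231 RNA would leave 3.04, 2.12 and 3.93 CPM of BMP4 in HS578T siNRP1#3 at the siNT level of MDA-MB-231. At its siNRP1#5 level 2.16, 0.804 and 0.893 CPM would be left. The level of MDA-MB-231 under siNRP1#3 itself was lower, with a mean of 34.2 CPM against 73.6 in siNT and 119 in siNRP1#5. At that level MDA-MB-231 RNA would bring less BMP4 and leave more than in either case. Use of the upstream start by HS578T cells and RNA from MDA-MB-231 cells cannot be told apart from the BMP4 values alone, and the origin of the upstream pair was not tested.

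BMP2 was too low to test in MDA-MB-231, where it had at most 14 counts in a library. Its highest MDA-MB-231 value, 0.246 CPM in shNRP1#3 replicate 3, was in the library with RNA of both other lines. That RNA would bring up to 0.366 CPM, which is more than was measured. In SUM159PT, BMP2 was at 8.66, 17.1 and 6.95 CPM in siNT and 2.22, 1.89 and 4.27 CPM in shNT, without overlap, and it was lower in shNT (log2 fold change -2.00, SE 0.40, adjusted p = 0.00674). In shNRP1#3 of that line it was at 8.22, 8.12 and 5.31 CPM, above all shNT libraries, with a log2 fold change of 1.38 (SE 0.39, adjusted p = 0.102).

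INHBA, the activin A subunit, rose in HS578T with siNRP1#3. It was at 39.6, 29.3 and 34.4 CPM in siNT and 149, 143 and 183 CPM in siNRP1#3, and all libraries of the latter were far above the former. The rise was 2.20 on the log2 scale, or 4.61-fold (SE 0.41, adjusted p = 0.00499), and it passed the threshold in all 28 alternative settings tried, with a log2 fold change between 2.09 and 2.44. In siNRP1#5 INHBA was at 22.4, 30.8 and 48.0 CPM, around the siNT values (log2 fold change -0.03, SE 0.39). In SUM159PT siNRP1#3 it was at 0.753, 0.404 and 0.474 CPM against 0.0879, 0.229 and 0.0486 in siNT, with a log2 fold change of 2.13 that was not past the threshold (SE 0.96, adjusted p = 0.183). In MDA-MB-231 siNRP1#3 the value was -0.55 (SE 0.27, adjusted p = 0.147). The siNRP1#3 effect on INHBA differed between the lines (F test, adjusted p = 0.0194), but this call was lost without replicate 1 or replicate 3, up to an adjusted p of 0.348.

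Of the cell lines, GREM1 passed the count filter in SUM159PT only, through 1 group. It had 12, 5 and 10 counts in siNRP1#3, against 0, 0 and 1 in siNT and 0 and 0 in siNRP1#5. Over the group, 27 counts against 1 give a ratio of 28.1 with an exact 95% interval from 4.63 to 1149 that covers counting error only, and against siNRP1#5 the level was at least 7.01-fold higher, with the floor set at 3 counts over the group. Its call is therefore given as a description, and it was lost under DESeq2 and on log2(TPM + 1). In the model of all samples GREM1 was not called. These levels are small beside those of BMP4, which in the same 3 libraries was at 3.72 to 5.32 CPM, while GREM1 was at 0.112 to 0.292 CPM.

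BAMBI, the decoy receptor, rose under siNRP1#5 in all 3 lines. In SUM159PT it was at 1.89, 3.23 and 1.94 CPM in siNT and 8.69 and 6.83 CPM in siNRP1#5 (log2 fold change 1.73, SE 0.41, adjusted p = 0.00927, and 0.101 with only the 2 groups in the fit). In MDA-MB-231 it was at 6.05, 8.15 and 5.44 CPM in siNT and 11.2, 14.0 and 10.0 CPM in siNRP1#5 (0.86, SE 0.16, adjusted p = 0.000355). In HS578T it was at 9.88, 10.7 and 12.7 CPM in siNT and 42.4, 21.0 and 35.9 CPM in siNRP1#5 (1.58, SE 0.34, adjusted p = 0.00517). The groups did not overlap in any line. Subtracting the RNA of other lines left the HS578T value at 1.90 (adjusted p = 0.0026), and at 1.84 (adjusted p = 0.00435) at the level under the same treatment. BAMBI was not called with shNRP1#5, the shRNA of the same sequence, in any line (log2 fold change 0.86 for SUM159PT, 0.16 for MDA-MB-231 and 0.59 for HS578T).

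With siNRP1#3, BAMBI in MDA-MB-231 was at 4.40, 4.53 and 4.41 CPM, below all siNT libraries (log2 fold change -0.53, SE 0.16, adjusted p = 0.0187). This call was lost without siNRP1#3 replicate 1 or siNT replicate 2. SMAD6, the intracellular inhibitor, was at 1.86, 1.75 and 2.30 CPM in the same siNRP1#3 libraries and at 4.13, 5.64 and 5.42 CPM in siNT, again without overlap. It fell by 1.34 on the log2 scale (SE 0.20, adjusted p = 9.19e-05). In siNRP1#3 of SUM159PT and HS578T the SMAD6 values were -1.04 (SE 0.43, adjusted p = 0.146) and -1.06 (SE 0.38, adjusted p = 0.129), so the sign was the same in the 3 lines and the test was passed in 1. In SUM159PT siNRP1#5 the 2 libraries stood apart from each other, at 6.81 and 45.0 CPM.

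**Figure D4:**
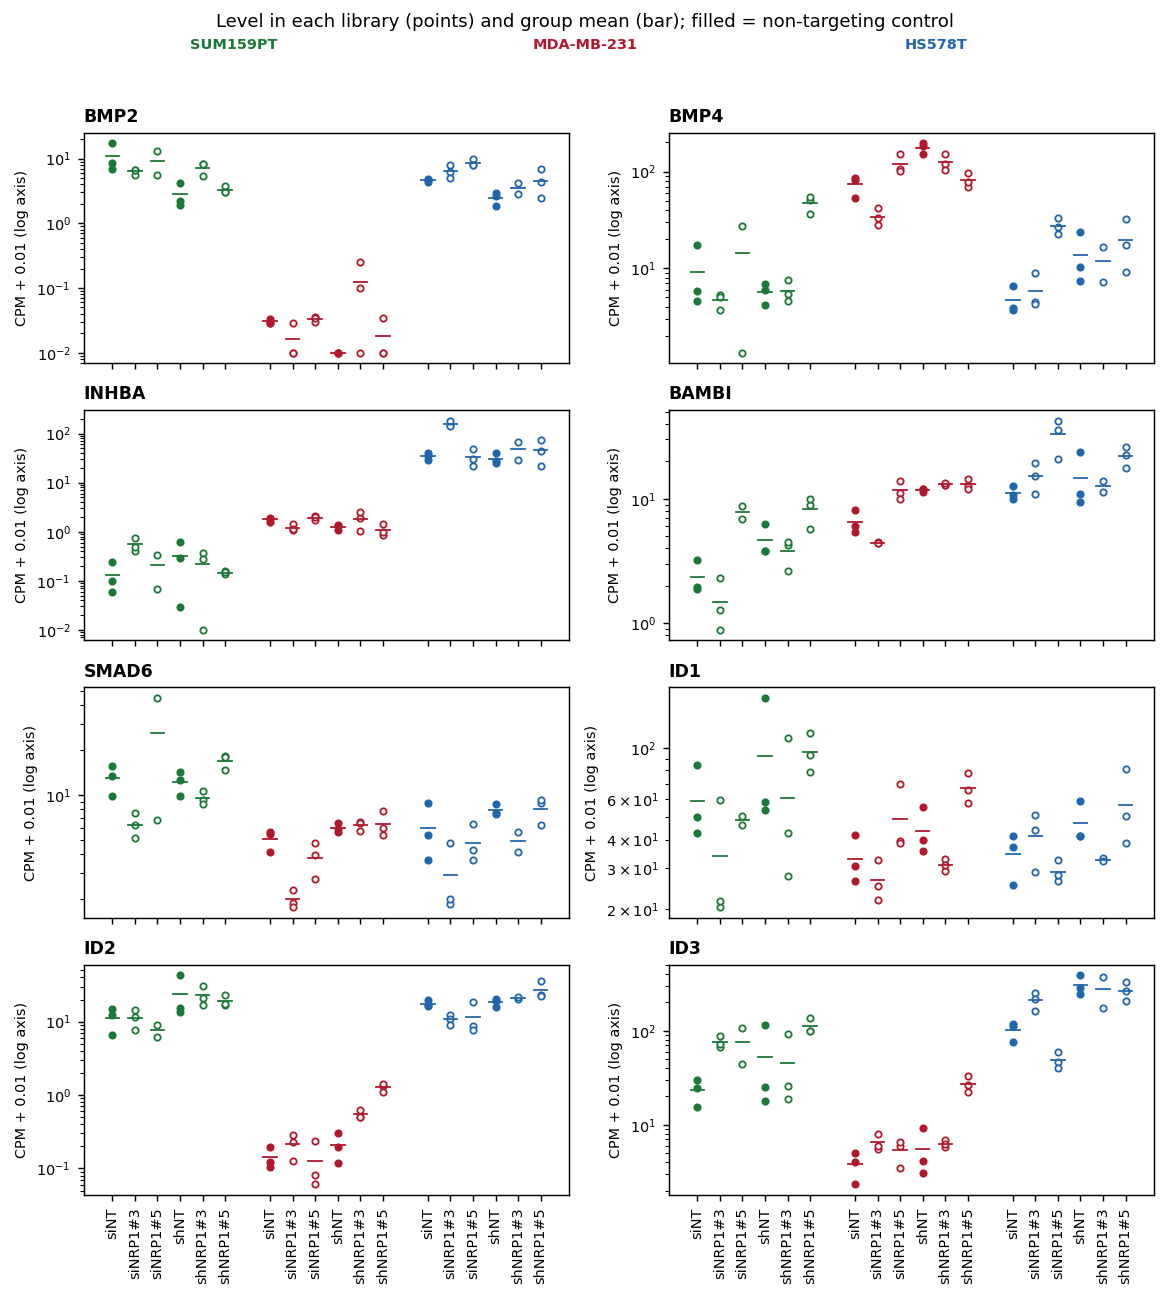
CPM (plus 0.01, log axis) of 8 of the genes in every library, with the group mean as a bar and the controls filled; GREM1 and ID4 are left out as nearly silent. INHBA in HS578T siNRP1#3, BAMBI in siNRP1#5 of each line, BMP4 in SUM159PT shNRP1#5 and ID2 and ID3 in MDA-MB-231 shNRP1#5 stand above their controls.

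ID2 and ID3 rose in MDA-MB-231 with shNRP1#5. ID2 was at 0.294, 0.183 and 0.110 CPM in shNT and 1.31, 1.40 and 1.08 CPM in shNRP1#5, and ID3 was at 9.34, 4.15 and 3.04 CPM in shNT and 22.2, 33.4 and 26.7 CPM in shNRP1#5. Neither gene's groups overlapped. The log2 fold change was 2.7 for ID2 (SE 0.40, adjusted p = 0.000165) and 2.32 for ID3 (SE 0.35, adjusted p = 0.000309). ID1 in these libraries was at 65.5, 78.2 and 57.6 CPM against 55.3, 35.7 and 39.9 in shNT, above all of them, with a log2 fold change of 0.63 (SE 0.23, adjusted p = 0.0569). ID4 had 10 counts over the 3 shNRP1#5 libraries and 0 over the shNT libraries, and was too low to test.

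The ID genes of MDA-MB-231 are low enough for RNA of other lines to count. In shNRP1#5, that RNA would bring at most 0.0181 CPM of ID2 and 0.142 CPM of ID3, far below the levels measured. After its subtraction ID2 kept its call and ID3 had a log2 fold change of 2.32 with an adjusted p of 0.0659. In shNRP1#3, ID2 was at 0.624, 0.492 and 0.492 CPM, above all shNT libraries (log2 fold change 1.45, SE 0.41, adjusted p = 0.0603). With the replicate number as a block, this value was 1.48 and its adjusted p 0.0491. Replicates varied together in this comparison, but the block spanned all groups of the line. In shNRP1#5 against shNT of this line the correlation went down to -0.247. Replicate 3 of shNRP1#3 is the library with RNA of both other lines, which would bring 0.908 to 0.971 CPM of ID2 and 7.05 to 7.58 CPM of ID3 by the marker rules. That is more than the 0.492 and 6.29 CPM measured there, so the subtraction exceeded the level of both genes in this library. With that RNA subtracted the ID2 value was 0.66 (adjusted p = 0.725), which cannot tell how much of the rise was RNA of other lines.

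In HS578T, ID3 moved in opposite directions under the 2 siRNAs. It was at 76.4, 113 and 118 CPM in siNT, 255, 160.5 and 215 CPM in siNRP1#3, and 46.2, 40.4 and 59.1 CPM in siNRP1#5, and the 3 groups did not overlap. The rise with siNRP1#3 was 1.04 on the log2 scale (SE 0.29, adjusted p = 0.0497), and it was past the threshold in 5 of 17 fits that left out 1 library. With other lines' RNA subtracted it was 1.10 (adjusted p = 0.0422), or 1.09 (adjusted p = 0.0546) at the level under the same treatment. The value with siNRP1#5 was -1.08 (SE 0.29, adjusted p = 0.0171), and its call was lost without siNRP1#5 replicate 1 or 2 or siNT replicate 2 or 3. MDA-MB-231 RNA has little ID3, and with other lines' RNA subtracted the value was -0.73 (adjusted p = 0.0891).

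In SUM159PT, ID3 was at 15.5, 30.0 and 24.5 CPM in siNT, at 67.6, 88.8 and 72.2 in siNRP1#3 and at 44.6 and 107 in siNRP1#5. Both siRNA groups were above all siNT libraries, with log2 fold changes of 1.71 (SE 0.64, adjusted p = 0.112) and 1.70 (SE 0.69, adjusted p = 0.0989). With the replicate block, the siNRP1#3 value was 1.78 with an adjusted p of 0.0243. Replicates of the same number varied together in this comparison, but the block spanned all groups of the line. In shNRP1#5 against shNT of this line the correlation went down to -0.0755.

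The ID genes varied together between replicates of SUM159PT shRNA libraries. In shNT, replicate 3 had 165 CPM of ID1, 43.1 of ID2 and 116 of ID3, while replicates 1 and 2 had 54.0 and 58.2 of ID1, 15.4 and 13.6 of ID2, and 17.7 and 25.1 of ID3. In shNRP1#3, replicate 3 was again the highest for all 3 genes, with 111, 30.2 and 91.7 CPM. In shNRP1#5 the 3 replicates lay close together, between 98.3 and 137 CPM of ID3. No ID gene was called in the shRNA comparisons of SUM159PT, where the standard error of the ID3 log2 fold change in shNRP1#5 was 0.63, against 0.35 in MDA-MB-231 and 0.29 in HS578T.

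**Figure D5:**
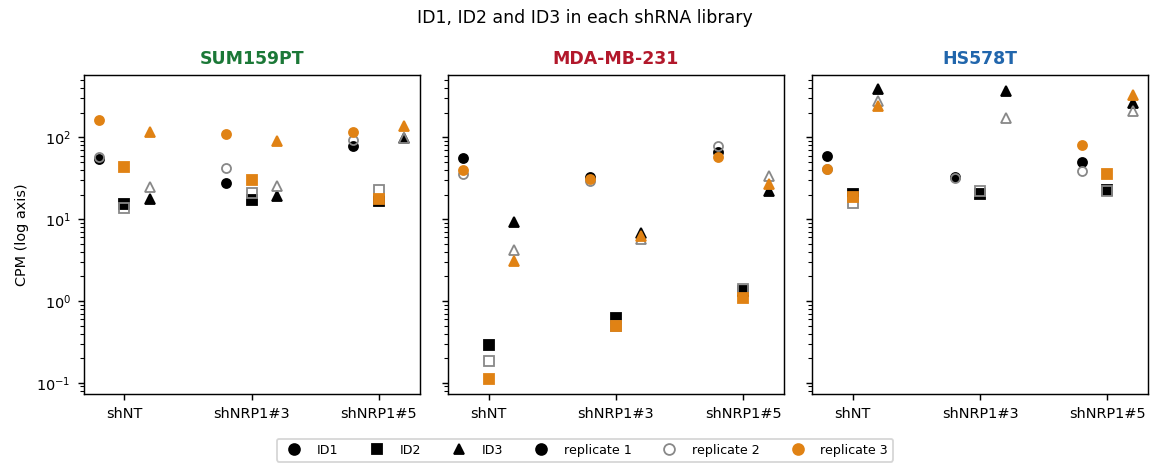
CPM (log axis) of ID1, ID2 and ID3 in each shRNA library of the 3 lines, by replicate number (colour and fill). In SUM159PT shNT and shNRP1#3, replicate 3 lies above replicates 1 and 2 for all 3 genes, and in MDA-MB-231 ID2 and ID3 of shNRP1#5 lie above those of shNT.

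The shNT controls also differed from the siNT controls. In SUM159PT 1 member was called (BMP2, above) of 9, against 14.4% of all genes. In MDA-MB-231 there were 2 of 7 (20.6% of all genes), BMP4 and BAMBI, and BAMBI was 0.82 higher in shNT on the log2 scale (SE 0.16, adjusted p = 0.00112). In HS578T there were 2 of 8 (17.9% of all genes). ID3 was at 391, 281 and 244 CPM in shNT, above all siNT libraries, by 1.59 on the log2 scale (SE 0.29, adjusted p = 0.00244). BMP4 was higher by 1.57 (SE 0.50, adjusted p = 0.0376), a call lost without shNT replicate 1 or 2 or siNT replicate 1 or 2 and with RNA of other lines subtracted at the level under the same treatment (adjusted p = 0.244). Reagent, harvest time and selection differed together between these groups and cannot be told apart.

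Sequence 5 was set directly against sequence 3, which asks whether the 2 reagents against NRP1 gave the same levels. These contrasts share their libraries with the comparisons above. Of 48 tests, 15 passed. With siRNA, 3 members of 9 were called in SUM159PT (29.7% of all genes), GREM1 among them, 4 of 7 in MDA-MB-231 (39%) and 4 of 8 in HS578T (18.1%). With shRNA the counts were 1 (8.71%), 3 (14.2%) and 0 (0.544%). In this last contrast 2 members, BAMBI and ID1, had an unadjusted p under 0.05 in edgeR, beside 2129 of 19661 genes tested, and DESeq2 called 0. BAMBI was higher in siNRP1#5 than in siNRP1#3 in all 3 lines, by 2.39 in SUM159PT (SE 0.41), 1.40 in MDA-MB-231 (SE 0.16) and 1.13 in HS578T (SE 0.34, adjusted p = 0.0307), where the call was lost without siNRP1#3 replicate 2 or 3 or siNRP1#5 replicate 1 or 3. With other lines' RNA subtracted the HS578T value was 1.40 (adjusted p = 0.0118). The HS578T call of BMP4 in this contrast was lost with subtraction at the level under the same treatment (log2 fold change 0.67, adjusted p = 0.688). ID1, called in none of the tests against controls, was higher with sequence 5 in MDA-MB-231, by 0.89 as siRNA (SE 0.23, adjusted p = 0.00494) and by 1.11 as shRNA (SE 0.23, adjusted p = 0.00418). SMAD6 was higher in siNRP1#5 by 0.94 in MDA-MB-231 (SE 0.20, adjusted p = 0.00115) and by 2.04 in SUM159PT (SE 0.47, adjusted p = 0.00476). The SUM159PT value rested on siNRP1#5 replicate 3 and was 0.13 without it (adjusted p = 0.798). Both SMAD6 calls were lost on the TPM scales.

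The effect of sequence 5 as shRNA was compared with its effect as siRNA in each line. In MDA-MB-231, 4 of 7 members differed (23.7% of all genes): BMP4, given above, BAMBI (log2 difference -0.70, SE 0.22, adjusted p = 0.0244), ID2 (2.83, SE 0.67, adjusted p = 0.00496) and ID3 (1.81, SE 0.50, adjusted p = 0.0135). ID2 and ID3 lost these calls when RNA of other lines was subtracted, at log2 differences of 2.47 (adjusted p = 0.146) and 1.76 (adjusted p = 0.314). The fit of the line also held shNRP1#3 replicate 3, where the subtraction exceeded the measured ID2 and ID3. Why these calls were lost was not tested. No member was called in SUM159PT (2.51% of all genes) or HS578T (0.854%), where edgeR gave 1 (BMP4) and 3 (BMP4, ID2 and ID3) at an unadjusted p under 0.05 and DESeq2 called 0. Over all genes tested, 4117 of 20067 and 2522 of 19661 were under this unadjusted value. In these lines the BMP4 differences were 2.48 (SE 1.02, adjusted p = 0.186) and -2.04 (SE 0.69, adjusted p = 0.192).

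Whether a knockdown acted differently in the 3 lines was tested with an F test per reagent over all 52 samples. For siNRP1#3, 1 member of 9 was called (INHBA, above; 3.42% of all genes). For siNRP1#5 there was 1 (18.2% of all genes), ID3, with log2 fold changes of 1.70, 0.51 and -1.08 for SUM159PT, MDA-MB-231 and HS578T (adjusted p = 0.0184). This call was lost without replicate 2 (0.132) or replicate 3 (0.0515) and with other lines' RNA subtracted (0.22). For shNRP1#5 there were 2 (3.81% of all genes): BMP4, with 3.11, -1.12 and 0.51 (adjusted p = 0.00258), and ID2, with -0.29, 2.7 and 0.54 (adjusted p = 0.0023). The BMP4 call was lost without replicate 1 (0.127), and the ID2 call without replicate 2 (0.0766) or replicate 3 (0.0649). For shNRP1#3 there were 0 (0.747% of all genes). In edgeR 2 members, BMP2 and ID2, had an unadjusted p under 0.05, beside 1518 of 23416 genes tested, and DESeq2 called 1, BMP2.

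A list of 77 further genes of the pathway was followed through the 12 knockdown comparisons. Of them, 57 could be tested for SUM159PT, 56 for MDA-MB-231 and 63 for HS578T. In MDA-MB-231, 1 was called higher and 20 lower in siNRP1#3 (37.5% of those tested, against 25.7% of all genes), 11 higher and 14 lower in siNRP1#5 (44.6% against 29.4%), and 5 higher and 10 lower in shNRP1#5 (26.8% against 20.7%). The median log2 fold change of the list in MDA-MB-231 siNRP1#3 was -0.38, against -0.0052 over all genes tested. Without subtraction of other lines' RNA, HS578T siNRP1#5 had 10 higher and 5 lower (23.8% against 18.7%). HS578T siNRP1#3 had 3 and 4 (11.1% against 4.65%) and SUM159PT siNRP1#3 had 1 and 6 (12.3% against 8.66%). SUM159PT siNRP1#5 had 6 and 5 (19.3% against 17.9%), SUM159PT shNRP1#5 6 and 0 (10.5% against 5.94%) and MDA-MB-231 shNRP1#3 3 and 0 (5.36% against 3.65%). SUM159PT shNRP1#3 and both HS578T shRNAs had 0. By role, over the 12 comparisons, ligands had 11 calls higher and 11 lower in 140 tests, and receptors 12 and 14 in 148. SMADs and their regulators had 4 and 14 in 144, and secreted inhibitors 8 and 11 in 132. BMP targets had 11 and 11 in 108, and E proteins 0 and 3 in 32. Over all genes, 11.3% of tests in these comparisons were called. The genes named per role are the 3 with most calls, and those with higher mean CPM where calls were tied.

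Of the ligands on the list, BMP5 rose in SUM159PT shNRP1#5 (log2 fold change 3.86), MDA-MB-231 siNRP1#5 (1.33) and HS578T siNRP1#5 (3.83) and fell in MDA-MB-231 siNRP1#3 (-1.33) and shNRP1#5 (-2.42), from a low mean of 0.590 CPM. GDF11 was lower in all 4 comparisons that called it. GDF15, a stress-responsive ligand of the family, was higher in siNRP1#5 of MDA-MB-231 (2.05) and HS578T (3.11) and lower in MDA-MB-231 shNRP1#5 (-2.27). With other lines' RNA subtracted, the HS578T siNRP1#5 values were 3.68 for BMP5, 3.37 for GDF15, 2.85 for NOG and 1.02 for TGFBR3, all past the threshold. At the level under the same treatment, GDF15 (3.27) and TGFBR3 (1.12) passed, NOG did not (1.99, adjusted p = 0.0501) and BMP5 was below the count filter. ACVR2B and GDF11 passed at the control level (1.12 and -0.88) but not at the level under the same treatment (0.47 and -0.62, adjusted p = 0.513 and 0.129). SMURF2 passed at neither level (0.73 and 0.53, adjusted p = 0.161 and 0.314). HEY1, ATOH8 and TCF4 passed at both.

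Of the receptors, TGFBR3 (betaglycan, a co-receptor) fell with siNRP1#3 in all 3 lines, by 1.25 (SUM159PT), 1.90 (MDA-MB-231) and 1.99 (HS578T) on the log2 scale, and it was also called with siNRP1#5 in MDA-MB-231 (-0.65) and HS578T (0.89). ENG, the endothelial co-receptor endoglin, and ACVR2B, a type II activin receptor, were each called in 4 comparisons, with both signs, as was BMPR1B, a type I BMP receptor. Among SMAD regulators, SKI, a co-repressor, also fell with siNRP1#3 in the 3 lines, by 1.11, 1.06 and 1.16, and it rose with siNRP1#5 in SUM159PT (0.82) and MDA-MB-231 (0.59). SMAD7, the other inhibitory SMAD, was lower in its 3 calls. SMURF2, a ubiquitin ligase of the pathway, was higher in 2, of which that in HS578T siNRP1#5 was lost with subtraction. SMAD1 and SMAD2, also with 2 calls each, were lower in both.

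Of the secreted inhibitors, FST (follistatin, which binds activin) rose 4.32 in SUM159PT shNRP1#5 and fell 1.21 in MDA-MB-231 shNRP1#5, and in MDA-MB-231 it was also called in siNRP1#3 (-0.57) and shNRP1#3 (0.63). NOG (noggin, which binds BMPs) rose in HS578T with siNRP1#3 (1.70) and siNRP1#5 (3.51) and fell in MDA-MB-231 siNRP1#3 (-0.69). Both HS578T values are without subtraction of other lines' RNA. With it the siNRP1#5 value was 2.85, or 1.99 (adjusted p = 0.0501) at the level under the same treatment. TWSG1 was lower in its 3 calls. Of the BMP targets, DLX2 rose with siNRP1#3 in all 3 lines (1.78, 1.62 and 2.06) and with shNRP1#5 in MDA-MB-231 (1.20), HEY1 rose in 3 comparisons and ATOH8 fell in 3 and rose in SUM159PT shNRP1#5 (1.22). RUNX2 and DLX5 were lower in 2 calls each, HES1, MSX1 and MSX2 lower in 1 each, GATA3 higher in 2, and GATA2 had 1 call of each sign. The E proteins that ID proteins bind, TCF3, TCF12 and TCF4, were each called once, all lower.

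The genes most like each member were taken over the 18 group means of log2 CPM after removing each line's mean, as a description that shares libraries between points. For BMP4 they were USP28 (Pearson r = 0.85), GULP1 (0.846) and PRICKLE1 (0.838), for BMP2 AZI2 (0.916), DCTN6 (0.907) and TBK1 (0.878), and for INHBA CDKN2B (0.848), a lncRNA without a symbol (0.806) and ZNF23 (0.799). For BAMBI they were STX3 (0.9), ZNF384 (0.899) and THUMPD1 (0.899), and for SMAD6 CBX5 (0.898), SNAP29 (0.891) and SH3BP4 (0.886). For ID1 they were SHC3 (0.845), ARL16 (0.833) and MCM3AP (0.812), for ID2 ZC3H7A (0.89), ZSCAN12 (0.882) and POP5 (0.878), and for ID3 CENPBD1P (0.823), ITFG2 (0.805) and RTN4IP1 (0.8). No member was among the 3 genes most like another. Between members, the highest r was that of BMP4 and BAMBI (0.708), followed by BAMBI and SMAD6 (0.606), and the 3 pairs of ID1, ID2 and ID3 lay between 0.43 and 0.553.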

How the data were processed

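Libraries were poly(A)-selected bulk mRNA of cell lines, and the groups were taken from the labels. According to the submitters' processing notes, the authors used FastQC 0.11.9, Trim Galore 0.6.5, STAR 2.7.2b and RSEM 1.3.3 on GRCh38. The authors deposited expected counts per gene (not scaled, not whole), TPM per gene and isoform percent (each transcript's percent of its gene). Here expected counts were rounded and tested with edgeR 4.0.16 (filterByExpr, TMM, robust quasi-likelihood F test) in 1 model per cell line, with 20067, 18800 and 19661 genes, and in 1 model of all 52 samples for comparisons between lines (23416 genes). P-values were two-sided and Benjamini-Hochberg adjusted over all genes tested, with a threshold of 0.05. CPM are TMM-scaled. Python 3.11.15 was used for the tables, and the tests were checked on simulated data. In simulated SUM159PT siNRP1#5 against siNT, 200 of 19320 genes were changed by 1.5 on the log2 scale. In the data a larger share, 17.9%, was called in this comparison, and no change was simulated in the others. Of the 200 genes, 97 were called (48.5%), and 3.96% of the calls were false. The absence of a call is therefore not evidence of no change.

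The members, the pathway list and the tests were chosen with earlier results of these data known. Named were all members and, per role of the list, up to 3 genes called in most knockdown comparisons, plus the 3 genes most like each member among those with a mean of at least 5 CPM. Marker genes of another line had at most 0.5 CPM in every control of a line and at least 20 in every control of the other (or in the control means, for the looser rule). The alternatives were DESeq2 1.42.0, no filter, upper quartile scaling, limma 3.58.1 on log2(TPM + 0.1) and log2(TPM + 1), a replicate block, only the 2 groups compared, leaving out libraries, and subtraction of other lines' RNA. The subtraction took the marker share times the other line's siNT or shNT mean. The looser marker rule, subtraction at the other line's level under the same treatment, and the fit without HS578T siNRP1#5 were added after seeing the data.

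Replicates with the same number were taken as paired where the correlation of their deviations from the group means was over 0.1 in each of 3 pairs, which held in 5 of the 12 knockdown comparisons (SUM159PT siNRP1#3 and shNRP1#3, MDA-MB-231 siNRP1#5 and shNRP1#3, and HS578T shNRP1#5). The labels do not say that a number marks a shared culture. The block spanned all groups of a line, including comparisons where replicates did not vary together. P-values measure the spread between these libraries. For shRNA that is the spread between successive passages and not between separate transductions. Replicates of a group differed by more than sampling noise, with a chi-square per degree of freedom of at least 11.0.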

Additional observations from a re-analysis of the deposited data

Results flagged for a closer look

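The effect of sequence 5 differed between its shRNA and its siRNA in MDA-MB-231 for 4 genes by a test of the difference itself. NRP1 was at 48.1% of control with the shRNA and at 3.32% with the siRNA. The adjusted p was 0.000195 for BMP4, 0.00496 for ID2, 0.0135 for ID3 and 0.0244 for BAMBI. The BMP4 call held in all 27 alternative settings. With the RNA of other lines subtracted, the log2 difference of ID2 was 2.47 (adjusted p = 0.146) and that of ID3 was 1.76 (adjusted p = 0.314). The BAMBI call was lost in 6 of 18 fits that left out 1 library.

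The effect of a knockdown differed between the 3 cell lines for 4 genes by an F test. The adjusted p was 0.0194 for INHBA with siNRP1#3, 0.0184 for ID3 with siNRP1#5, and 0.0023 and 0.00258 for ID2 and BMP4 with shNRP1#5. Each of these calls was lost in at least 1 of the 3 fits that left out a replicate number.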

How the results depend on the processing

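Over 12 knockdown comparisons the number of member calls was 16, between 14 and 20 when 1 library was left out, and 14 to 20 in the other settings except without a filter on low counts, where it was 32. For shNT against siNT the count of 5 went from 4 to 6 without 1 library, for sequence 5 against sequence 3 the count of 15 went from 13 to 17, and for shRNA against siRNA the count of 4 went from 3 to 5. The last count was 2 when the RNA of other lines was subtracted by either marker rule or at the level under the same treatment. Between cell lines the control count of 20 went from 17 to 18 without a replicate number, and the count of 4 differing knockdown effects went from 2 to 3, and to 9 without a filter. BAMBI in HS578T against MDA-MB-231 controls turned from 0.54 to -0.288 on log2(TPM + 0.1) and -0.261 on log2(TPM + 1). With the replicate number as a block, the counts were 19, 6, 16, 4, 20 and 4 in the order above, and no call was lost. The calls gained where the pairing did not hold were ID1 in MDA-MB-231 shNRP1#5, ID3 in SUM159PT shNRP1#5 against shNRP1#3 and ID2 in SUM159PT shNT against siNT. Of the settings for single genes, 1258 kept direction and side of the threshold, 109 lost the call and 2 reversed. The cause of these changes was not tested. Groups of 2 or 3 libraries, and counts of at most 12 for GREM1 and 5 for ID4, limit what could be detected.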
